A study of Drosophila melanogaster with 3 samples.

Results

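Enabled (ena) and 8 other regulators of actin filaments were examined for binding of Stwl, a nuclear protein of Drosophila melanogaster known for its role in the female germline. The 9 genes are ena, Abl, chic, dia, tsr, SCAR, WASp, capu and spir, out of 13945 protein-coding genes on the main chromosome arms. They were selected on measured values, because ena carries the strongest peak of the data, so the ranks and signal values below describe them and no test was made on them. All peak summits inside a gene or within 2 kb of one of its transcription start sites (TSSs, Ensembl BDGP6.54) were assigned to it. Binding was measured by chromatin immunoprecipitation and sequencing (ChIP-seq) with an anti-GFP antibody on whole embryos aged 0 to 10 hours, from 1 transgenic line in which Stwl has GFP at its C-terminus. The 3 biological replicates, all of this line and age, form 1 group, and no comparison between conditions exists. Whole embryos hold many cell types and stages, and in which of them Stwl was bound to these genes cannot be told from the lists.

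Actin filaments grow by addition of monomers at their barbed ends and are started by separate classes of nucleators. Ena, the fly member of the Ena/VASP family, keeps barbed ends growing, and Abl is the tyrosine kinase that restrains it in growing axons and in epithelia of the embryo. Profilin, encoded by chic, feeds monomers to growing ends, and cofilin, encoded by tsr, severs filaments. The formins dia and capu start and lengthen unbranched filaments, and spir is a nucleator that works with Capu in the oocyte. SCAR and WASp switch on the Arp2/3 complex, which starts branched filaments.

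The data are 5 peak lists with summits in dm6 coordinates. Each replicate list and the list of the pooled replicates holds 30000 peaks, and 7241 summits of the pooled list passed the irreproducible discovery rate (IDR) step. These IDR summits are the 7241 strongest of the pooled list and carry the same signal value there. A signal value is the authors' measure of peak height against a control and has its own scale in each list, so values were compared within a list and ranks (1 is the strongest) between lists. The median signal value was 416.0 in the IDR list and 20.15, 23.46 and 59.71 in replicates 1, 2 and 3. Read depth is unknown.

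All 9 genes had an IDR summit inside the gene or within 2 kb of a TSS, and all 9 had one within 500 bp of a TSS, called a promoter summit below. The same held for 53.0% and 42.1% of all protein-coding genes. The 9 genes together held 17 IDR summits, of which 12 were promoter summits and 10 of these lay upstream of the TSS. Of the 9 genes, 6 had at least 2 IDR summits, against 18.7% of all genes. In the pooled list 9 of 9 genes had a summit by the same rule, against 69.9% of all genes. The 3 replicate lists also gave 9 of 9 each, against 74.9% of all genes in replicate 1, 72.5% in replicate 2 and 70.4% in replicate 3. The 9 genes were chosen on their values, so nothing was read from these counts alone.

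The signal values at the promoters of the 9 genes covered nearly the whole range of the IDR list. Among the 5870 genes with a promoter summit, ordered by their strongest one, ena came 1st, Abl 179th, WASp 434th and dia 2196th. The other 5 genes followed as chic at 3427, tsr at 3783, SCAR at 4375, spir at 4633 and capu at 5836. The median of the 9 genes was 463.6, below the 523.1 of all genes with a promoter summit, and their quartiles were 359.9 and 1138, against 357.7 and 744.2. So ena, Abl and WASp lay above the upper quartile of all such genes, and spir and capu lay below the lower one. Among the 3620 strongest summits of the IDR list, 6 of the 9 genes kept a promoter summit, against 27.7% of all genes, and SCAR, spir and capu did not.

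**Figure D1:**
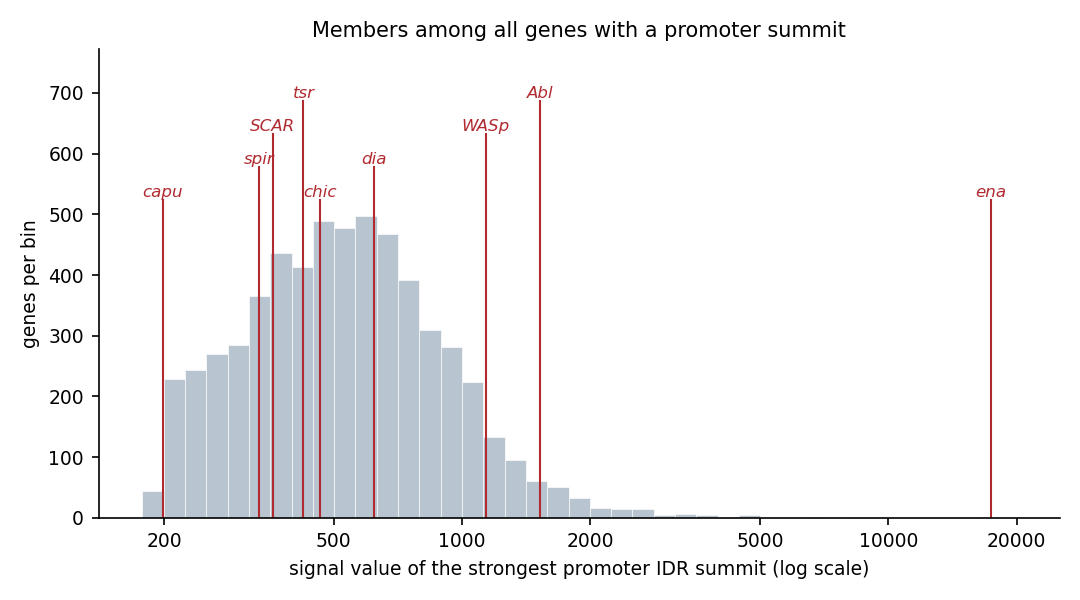
Signal value of the strongest promoter summit of each gene in the IDR list (log scale, horizontal axis) for all 5870 genes with one (grey bars, number of genes per bin), with red lines for ena and the 8 other genes. ena stands alone at 17416, Abl (1523) and WASp (1138) lie in the upper tail, and capu (198.5) lies at the lower end.

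ena (FBgn0000578) lies on the plus strand of chromosome 2R, from 19141632 to 19163705, and has 2 annotated TSSs. Its main summit lay 93 bp upstream of the first TSS, between genes, with a signal value of 17416 in the IDR list. In the replicates this summit had signal values of 2904, 3278 and 11292, and it was the strongest peak of all 3 lists. Its position varied little, at 88, 101 and 81 bp upstream of the TSS in replicates 1, 2 and 3. The summit ranked next in the IDR list had 13600, so the first was 1.28 times as high, and the same ratio was 1.54, 1.54 and 1.18 in the replicates. Against the median peak of its own list, the ena summit was 144, 140 and 189 times as high in replicates 1, 2 and 3.

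The interval called around the ena promoter was 1487 bp wide, against a median of 315 bp over the 7097 IDR intervals, and 2 of those were wider. In the replicates the interval was 1023, 1066 and 1258 bp wide. A weaker IDR summit in the same interval, 312 bp upstream of the TSS, had a signal value of 504.8 and IDR rank 2772. No replicate list had a summit within 150 bp of it, so it rests on the pooled data. The other 15 IDR summits of the 9 genes lay in intervals of 124 to 481 bp, the narrowest at SCAR and the widest at Abl, and 4 of them had the width of 430 bp that 22.3% of all IDR peaks share. The gene upstream of ena, CG15111, is on the same strand and ends 598 bp before the ena TSS, and neither summit is within 500 bp of the TSS of another gene.

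The second TSS of ena, 13589 bp into the gene, had no IDR summit within 500 bp. One pooled summit lay 237 bp beyond it, in the 5′ UTR, with a signal value of 57.31 and rank 23770, and 1 replicate list had it. ena held 13 pooled summits below the IDR threshold, of which 4 recurred within 150 bp in all 3 replicate lists. The strongest of these was in an intron 2865 bp after the first TSS, with a signal value of 147.1 and ranks of 8822, 8794 and 10381 in replicates 1, 2 and 3. The other recurrent ones lay 1973 bp before the first TSS, 3874 bp after it and 1097 bp before the second TSS, with signal values of 53.81, 120.9 and 95.49. The bulk of the signal at ena was thus at its first promoter, with a weak series of summits in the gene body.

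Genes whose promoter summits ranked most like that of ena across the replicates were sought by the distance between log10 ranks over the 3 replicate lists, among 5437 genes found in all 3. The nearest were Prosbeta7, a proteasome subunit gene, with ranks of 4, 3 and 4, stwl itself with ranks of 3, 6 and 3, and CG34345 with ranks of 6, 4 and 5. Their signal values in the IDR list were 9097, 8792 and 8595, all below that of ena. The tagged transgene carries stwl sequence as well, and its part in the stwl value was not tested.

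**Figure D2:**
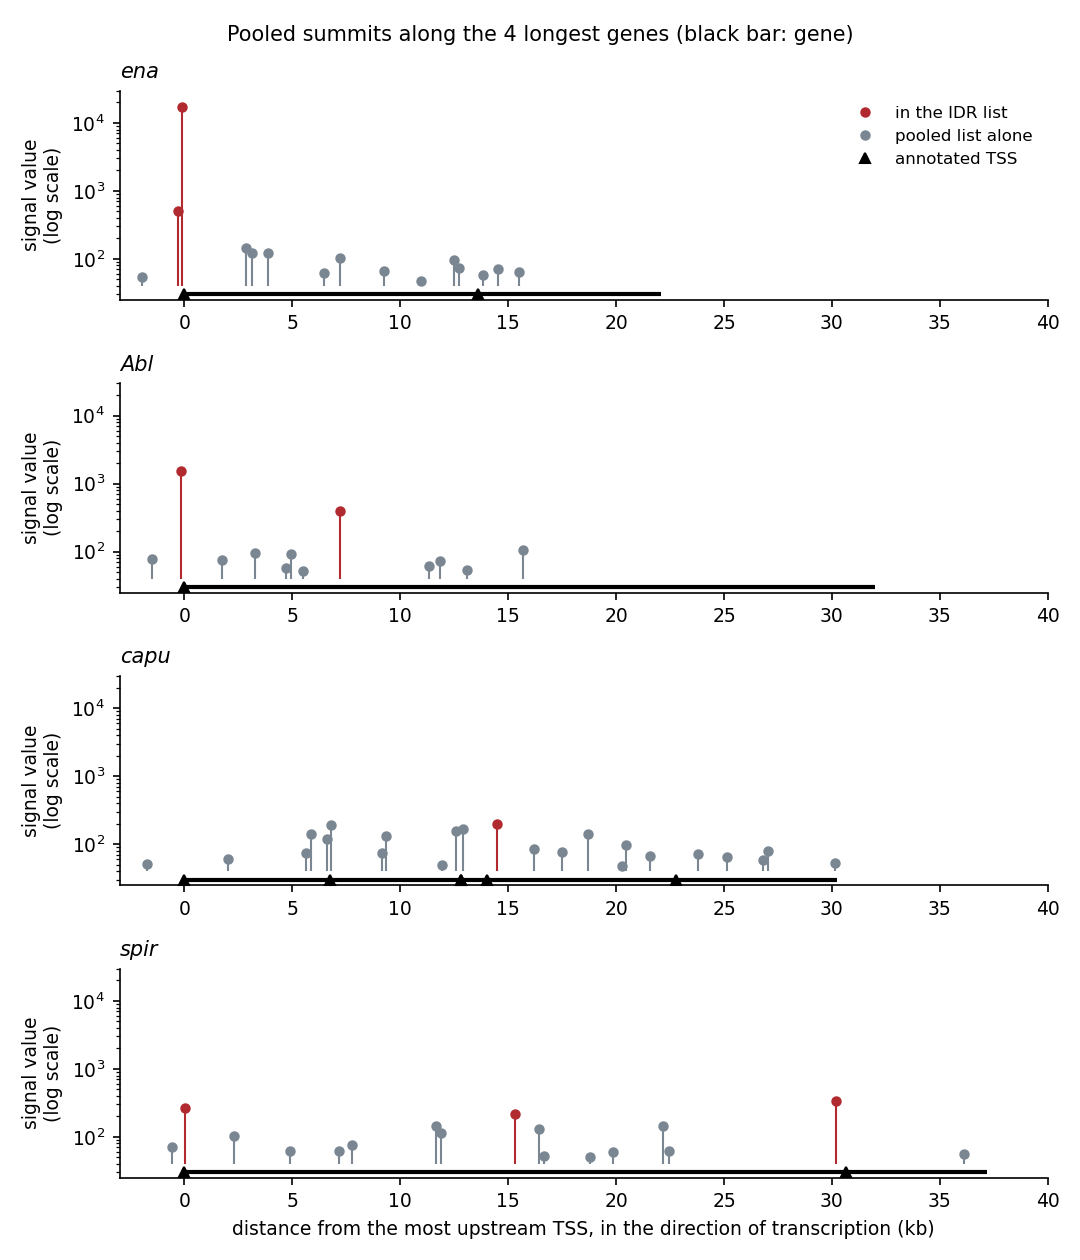
Summits of the pooled list along ena, Abl, capu and spir, by distance from the most upstream TSS in the direction of transcription (kb) and signal value (log scale). Red stems are IDR summits, grey stems are pooled summits below the threshold, triangles are TSSs and black bars are the genes. The 17416 peak of ena stands at its first TSS, while capu shows a run of low summits in which 1 passed the threshold, with 198.5.

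Abl (FBgn0000017, 3L from 16615866 to 16647882, minus strand) has 1 TSS and came next after ena among the 9 genes. Its promoter summit, 148 bp upstream of the TSS, had a signal value of 1523 and IDR rank 184. The replicates gave it signal values of 148.6, 207.5 and 1203 and ranks of 680, 453 and 114. It was in the upper part of every list, highest in replicate 3. Relative to the ena summit of the same list, Abl had 5.12%, 6.33% and 10.7% of the signal value in replicates 1, 2 and 3. A further IDR summit lay 7194 bp into the gene, in an intron, with a signal value of 389.9. It ranked 3790, 5640 and 3884 in the replicates, so it recurred in all 3 lists. Abl also held 10 pooled summits below the threshold, none of which recurred in all 3 replicates.

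WASp (FBgn0024273, 3R from 28824506 to 28832024, minus strand) has 4 TSSs, and its 1 IDR summit lay 63 bp upstream of the first. Its signal value was 1138, with IDR rank 426, and it had 178.1, 187.2 and 793.8 in replicates 1, 2 and 3. Ranks of 410, 650 and 400 placed it close to Abl, above it in replicate 1 and below it in replicates 2 and 3, so the order of these 2 genes was not the same in every replicate. As a share of the ena summit, WASp had 6.13%, 5.71% and 7.03%. No other pooled summit was assigned to WASp. SCAR (FBgn0041781, 2L from 10976772 to 10982395, plus strand), which activates the same Arp2/3 complex as the core of the WAVE complex, had lower values. Its IDR summits lay 365 and 42 bp upstream of its 1 TSS, with signal values of 359.9 and 258.7. In replicates 1, 2 and 3 the farther one had 42.84, 60.55 and 234.3, and the nearer one had 27.26, 53.62 and 168.2. The farther summit was thus the higher one in all 3 lists. It also lay 8 bp from the TSS of ATPsynG, a divergent gene for a subunit of ATP synthase whose TSS is 373 bp from that of SCAR.

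chic (FBgn0000308, 2L from 5972115 to 5981018, minus strand) had 3 IDR summits. The one nearest to its first TSS, 24 bp upstream, had a signal value of 463.6 and IDR rank 3122, with 39.10, 95.38 and 361.6 in the replicates. Its ranks of 6562, 2893 and 2498 show a lower place in replicate 1, where the summit lay 76 bp downstream of the TSS. A pooled summit 658 bp upstream of the TSS, with 183.5, fell below the IDR threshold. Its matches ranked 2462, 12022 and 8168 in the replicates, and in replicate 1 it was the higher one, with 84.38. The summit 1513 bp upstream of chic, with 420.4, lay 63 bp from the TSS of the divergent gene eIF4A, a translation initiation factor, in its 5′ UTR. An intronic summit 1170 bp downstream of the third TSS of chic, with 200.6 and IDR rank 7065, was matched in replicate 3 alone.

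The DNA under the promoter summits is shown for Abl and WASp, the highest after ena, and for chic, SCAR and capu, which stand lower. Each run is read from the RefSeq Release 6 genome (dm6) on the strand of the gene, 5′ to 3′, up to 100 bp to either side of the summit and without exon bases. A motif absent from a run may thus lie outside it, as does a match of GGTCACAC in WASp, 71.5 bp downstream of the summit. The SCAR run is that of the farther summit, near the TSS of ATPsynG. The intervals are chr3L:16647930-16648130 for Abl, chr3R:28832025-28832187 for WASp, chr2L:5981019-5981142 for chic, chr2L:10976400-10976507 for SCAR and chr2L:3888256-3888456 for capu. Capitals mark CGATA on either strand, the core bound by the insulator protein BEAF-32, TATCGATA, the DNA replication-related element (DRE) bound by DREF, which contains CGATA, and in capu the repeat ACACACAC.
Abl: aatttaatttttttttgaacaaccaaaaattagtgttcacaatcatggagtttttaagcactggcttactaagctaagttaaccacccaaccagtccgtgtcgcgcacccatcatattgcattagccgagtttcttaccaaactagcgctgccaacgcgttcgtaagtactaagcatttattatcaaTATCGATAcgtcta
WASp: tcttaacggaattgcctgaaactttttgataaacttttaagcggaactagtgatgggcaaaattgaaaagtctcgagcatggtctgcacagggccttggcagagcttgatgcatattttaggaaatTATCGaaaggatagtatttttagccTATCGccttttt
chic: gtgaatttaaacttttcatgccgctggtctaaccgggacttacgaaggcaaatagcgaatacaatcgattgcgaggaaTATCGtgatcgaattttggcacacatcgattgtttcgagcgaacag
SCAR: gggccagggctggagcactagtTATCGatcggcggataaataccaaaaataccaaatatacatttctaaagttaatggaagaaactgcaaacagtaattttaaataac
capu: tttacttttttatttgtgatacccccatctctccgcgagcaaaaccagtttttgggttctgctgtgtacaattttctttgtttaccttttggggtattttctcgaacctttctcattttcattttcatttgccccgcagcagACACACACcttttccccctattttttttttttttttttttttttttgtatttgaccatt
The Abl run holds the DRE near its 3′ end, 90.5 bp downstream of the summit, and WASp holds 2 copies of CGATA, the nearer one 28.0 bp downstream. In SCAR the copy lies 17.0 bp downstream of the summit, and in chic it lies upstream of it at a similar distance. The capu run has no CGATA and has the repeat 45.5 bp downstream of its summit, beside a long run of T.

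In all, 10 motifs were searched on both strands in the 201 bp around each summit. CGATA was present at 7 of the 17 summits, which is 41.2%, against 45.4% of all IDR summits, 36.6% of 19253 promoters of the same length and 22.2% of windows 1000 bp to either side of IDR summits. The DRE was at 2 of the 17, the promoter summit of Abl and the weaker summit of ena, against 12.0% of IDR summits, 6.21% of promoters and 0.601% of flanking windows. Motif 1, searched as GGTCACAC and known as the site of M1BP, was at the nearer SCAR summit and at WASp, against 11.2%, 3.33% and 0.559%. TATAAA was at 4 of the 17 (29.9% of IDR summits, 33.6% of promoters), GCCAT, the core bound by Pho, at 3 (29.1% and 29.9%) and ACACACAC at 1 (3.37% and 3.80%). The GAGA repeat GAGAGAG (4.13% of IDR summits), the E-boxes CAGCTG (14.0%) and CACGTG (2.76%) and the Zelda site CAGGTAG (0.594%) were at none of the 17. The strongest summit of all, that of the ena promoter, held none of the 10 motifs in its window. The DRE at the weaker ena summit lies outside this window but within the same 1487 bp interval. These are matches of letters in a window and do not show that a factor binds. The GC content of the 17 windows had a median of 38.3%, against 37.3% for all IDR summits and 44.3% for the flanking windows. It ranged widely, with 24.9% at the weaker ena summit, 35.3% at the main one and 61.2% at the intronic summit of chic.

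tsr (FBgn0011726, 2R from 24044453 to 24046805, minus strand) had an IDR summit 79 bp upstream of its TSS, with a signal value of 424.6, and another in an intron 1430 bp downstream, with 483.6. The intronic one ranked 3540, 3782 and 2924 in the replicates. The promoter one had 62.62 and 291.3 in replicates 1 and 3 and was matched by no summit within 150 bp in replicate 2. That replicate had a promoter summit farther out, 339 bp upstream of the TSS, with 93.83 and rank 2975, above the 79.25 of the intronic summit there. The summit at 339 bp was matched to another pooled summit, 279 bp upstream with 136.8, below the IDR threshold. Replicate 1 had that one too, 293 bp upstream with 40.33. So all 3 replicates had a promoter summit at tsr, but replicate 2 lacked the one in the IDR list.

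The formin gene dia (FBgn0011202, 2L from 20758144 to 20768053, plus strand) had 1 IDR summit, 111 bp upstream of its first TSS, with a signal value of 620.7 and IDR rank 1936. The summits matched to it had 71.78, 160.7 and 404.0 in replicates 1, 2 and 3, with ranks of 3184, 979 and 2080, so replicate 2 placed it highest. The IDR summit lay 48 bp from the TSS of Rhau, a helicase gene that runs the other way from a TSS 159 bp away. To which of these genes the summit belongs cannot be told apart. In replicates 1, 2 and 3 the match lay 183, 194 and 111 bp upstream of the dia TSS, in replicates 1 and 2 within the 5′ UTR of Rhau. Replicates 1 and 2 also had a weaker summit in the 5′ UTR of dia, 17 and 11 bp downstream of its TSS, with 26.82 and 56.97.

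In capu and spir, summits away from the first promoter made up much of the record. capu (FBgn0000256, 2L from 3872646 to 3902860, minus strand) has 6 TSSs, and its 1 IDR summit lay in an intron 468 bp downstream of the 5th, a TSS that is 14036 bp from the first. Its signal value of 198.5 was near the lowest of the IDR list, 194.5, and it had 31.09, 26.43 and 149.8 in the replicates, with ranks of 8403, 12631 and 6636. A capu summit 57 bp downstream of the second TSS fell just below the threshold with 191.4, and replicate 1 had it at rank 5452, above the IDR summit. The summits within 150 bp of it in replicates 2 and 3, ranked 8444 and 7453, lay nearer to another pooled summit, with 121.2, and were not read as its own. A further pooled summit below the threshold, 224 bp upstream of the third TSS with 158.2, ranked 10928, 5734 and 12693 in the replicates. It stood above the IDR summit in replicate 2 and below it in replicates 1 and 3. In all, capu had 22 pooled summits below the threshold, 6 of which had a summit within 150 bp in all 3 replicates. Of these 6, 2 were matched to the same summits of replicates 2 and 3, so they are not separate recurrences.

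spir (FBgn0003475, 2L from 20311219 to 20348386, plus strand) had an IDR summit at each of its 2 TSSs and a further one between them. The summit at the first TSS lay 36 bp downstream of it, in the 5′ UTR, with a signal value of 266.3 and 53.29, 46.01 and 166.9 in the replicates. The one 455 bp upstream of the second TSS, which is 30632 bp from the first, had 334.7 in the IDR list and 36.52, 40.62 and 250.1 in the replicates. So the second promoter was the higher one in the pooled data and in replicate 3, and the first was the higher one in replicates 1 and 2. The intronic summit, 15295 bp from the first TSS, had 218.7 and ranks of 13054, 5431 and 6658.

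Of the 22 TSSs of the 9 genes, 10 had an IDR summit within 500 bp and 16 had a pooled summit. The most upstream TSS had an IDR summit in 8 of 9 genes, all but capu. The same shares over all annotated TSSs were not counted, so nothing was read from these counts. Of the 6 genes with several TSSs, the strongest promoter summit was nearest to the most upstream TSS in 4, namely ena, chic, dia and WASp. Among all genes with several TSSs and a promoter summit this was so in 72.2%.

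Length gives a gene more room for summits, and 4 of the 9 genes, ena, Abl, capu and spir, span at least 20 kb. All 4 had an IDR summit by the rule, against 68.9% of the 1013 protein-coding genes of that length, and all 4 had a promoter summit, against 44.0%. The pooled list gave 5.44 summits per 10 kb in ena, 3.12 in Abl, 7.28 in capu and 4.30 in spir, against a median of 1.46 and an upper quartile of 3.33 for genes of that length. So capu, with the lowest promoter signal of the 9, had the densest summits of the 4 long genes, and Abl, with a high promoter signal, was the 1 below the upper quartile.

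**Figure D3:**
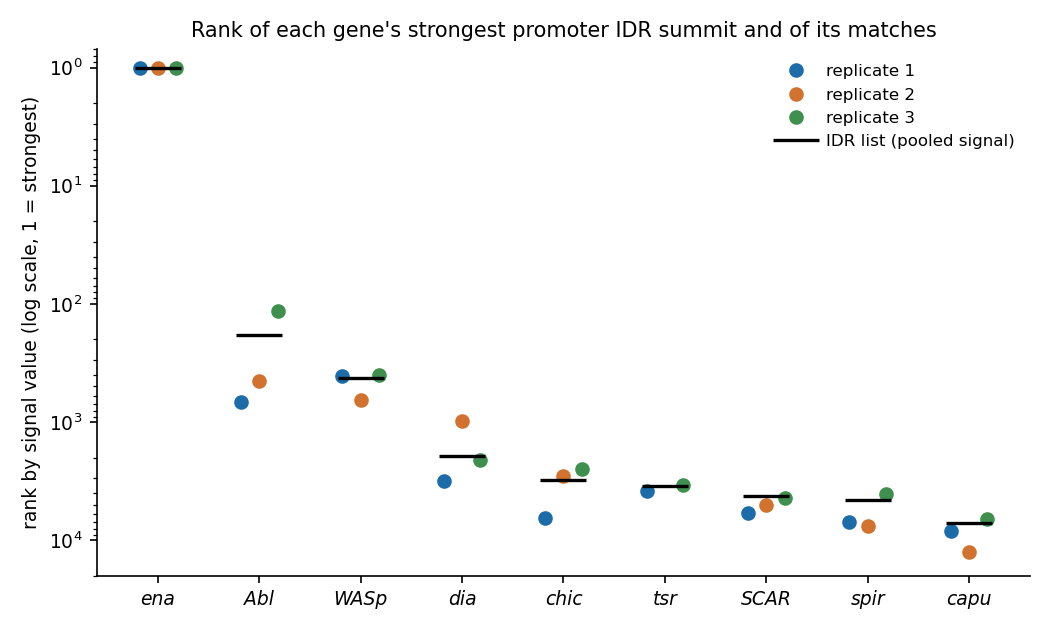
Rank by signal value (log scale, 1 is the strongest) of the strongest promoter IDR summit of each gene, in the IDR list (black bars) and at the summit matched to it within 150 bp in replicates 1, 2 and 3 (points). ena is first in all lists, Abl and WASp lie between 114 and 680, and the capu points lie between 6636 and 12631. The tsr summit has no match in replicate 2, whose own tsr promoter summit lies farther upstream.

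Of the 17 IDR summits, 14 had a summit within 150 bp in all 3 replicate lists, which is 82.4%, against 90.9% of all 7241. The exceptions were the weaker ena summit, the intronic summit of chic and the promoter summit of tsr. Below the threshold, 12 of the 70 pooled summits of the 9 genes recurred in all 3 lists, or 17.1%, against 14.3% of all 22756 such summits, where a replicate summit could match more than 1 pooled summit. Apart from ena, Abl and WASp, no summit of these genes reached 5% of the ena summit in any replicate, and the highest was dia in replicate 2, with 4.90%. At the 2 kb limit, the ena summit 1973 bp before its TSS was just inside, and the nearest pooled summit beyond it, at 2178 bp, had 68.69. The nearest IDR summit beyond the limit for any of the 9 genes was at 2121 bp from tsr, with 715.0, above both of the summits assigned to tsr.

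A promoter summit can serve divergent neighbours. The strongest promoter summit was within 500 bp of the TSS of another protein-coding gene in 2 of the 9 genes, dia and SCAR, against 56.6% of all 5870 genes with a promoter summit. The genes upstream of ena, Abl and WASp (CG15111, Baldspot and Apc) are on the same strand, and their facing ends lie 598, 560 and 277 bp away. With 9 genes selected on their values, nothing particular to them follows from this count.

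A list of 76 further genes of the actin pathway in 11 roles gave the setting. Of these, 61 had a promoter summit, or 80.3%, against the 42.1% of all protein-coding genes. The median signal value of the 61 was 497.4, against 523.1 for all genes with a promoter summit. Of the 61, 34 had their summit within 500 bp of the TSS of another protein-coding gene, or 55.7%, close to the 56.6% of all such genes. The list was drawn up with results of these data known, and its share was not tested.

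By role, the partners of SCAR and WASp had a promoter summit in 7 of 7 genes, led by Vrp1 (800.5), a WASp-binding verprolin, and Abi (693.5), a WAVE complex subunit. The Arp2/3 complex had it in 7 of 8 genes, led by Arpc4 (771.3) and Arpc5 (649.3). The exception, Arpc3B, had an IDR summit inside the gene or within 2 kb of a TSS. Capping proteins gave 3 of 3, with tmod (640.6), tropomodulin, and cpb (497.6), the capping protein beta subunit. Filament turnover gave 7 of 8, led by GMF (652.2) and by twf (693.5), twinfilin, whose summit is the same one as that of Abi. Other formins gave 3 of 4, with DAAM (748.1) and Frl (549.8). The exceptions in filament turnover and other formins, capt and form3, had no IDR summit inside the gene or within 2 kb of a TSS either.

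Partners of Abl had a promoter summit in 6 of 7 genes, led by fax (1607), a genetic partner of Abl in axons, and robo1 (681.8), an axon guidance receptor. Adhesion genes and partners of Ena had it in 7 of 9, led by pico (1623), the fly member of the lamellipodin family, whose proteins bind Ena/VASP, and Zyx (1585), zyxin. These 2 and fax stood above Abl (1523) and were the highest of the 76, with replicate ranks of 183, 427 and 124 for pico, 136, 192 and 166 for Zyx, and 99, 205 and 167 for fax. Myosin II and its regulators gave 5 of 6, led by flw (1057), a phosphatase catalytic subunit, and Mlc-c (490.9), and the exception was sqh. Crosslinkers and bundlers gave 5 of 8, led by kst (531.8) and Actn (353.5), and sn, f and qua had no promoter summit. Of the genes of these roles without one, sqh, sn and f had an IDR summit inside the gene or within 2 kb of a TSS. The others, qua, the Abl partner chb and the adhesion genes p120ctn and alpha-Cat, had none by that rule either.

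The actins had the lowest share of the roles, with a promoter summit in 2 of 6, or 33.3%, against 42.1% of all protein-coding genes. With 6 genes, this count is not far from that share. Act42A, a cytoplasmic actin gene, had 318.4 and Act87E, a muscle actin gene, had 201.4, both below the lower quartile of all genes with a promoter summit. Act5C, the other cytoplasmic actin gene, and the muscle actin genes Act57B, Act79B and Act88F had no IDR summit within 500 bp of a TSS. Inside the gene or within 2 kb of a TSS, however, Act5C, Act57B and Act88F had an IDR summit as well, so Act79B was the only actin gene with none. By that wider rule 53.0% of all protein-coding genes had one. The contrast with the other roles is one of counts at the 500 bp distance and was not tested.

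**Figure D4:**
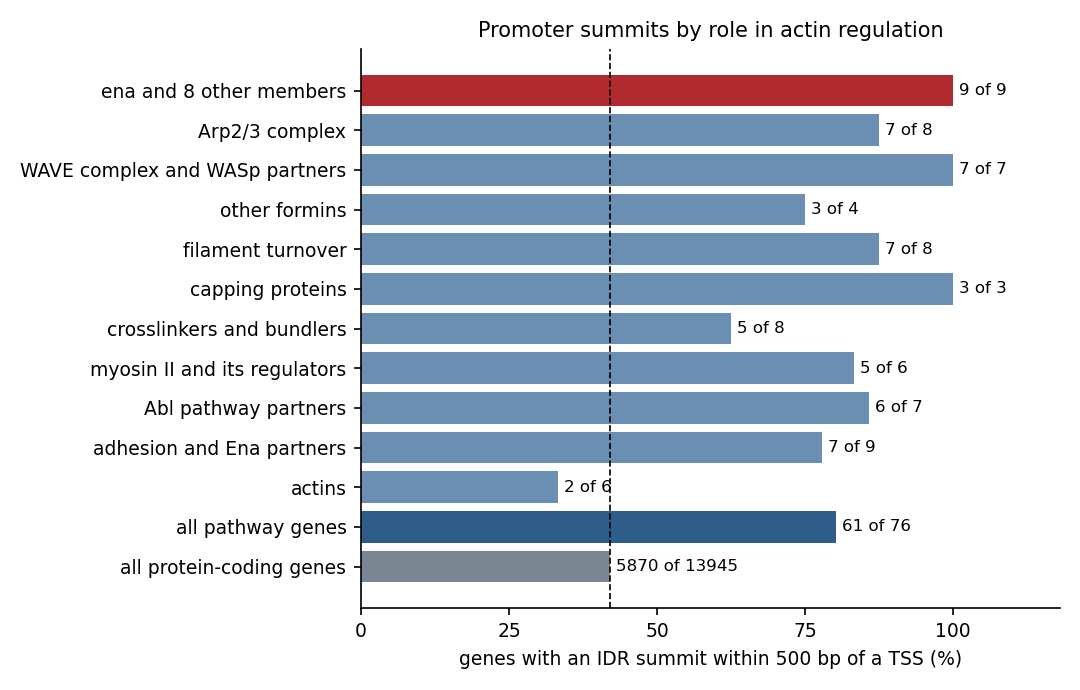
Share of genes that have a promoter summit in the IDR list (percent, horizontal axis), for ena and the 8 other members, 10 roles of the pathway list, the whole list and all protein-coding genes, with the number of genes beside each bar. The dashed line is the 42.1% of all protein-coding genes; the actins, at 2 of 6, are the 1 role shown that lies below it.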

How the data were processed

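Peak lists of 3 biological replicates of anti-GFP ChIP-seq on Stwl-GFP embryos were analysed. Each replicate list was made from 1 library and a control library, the pooled list from all 3 and the control, and the IDR list from these lists, per the text files the authors deposited beside them. The signal values, in units of the authors' caller, and the −log10 q-values were deposited per peak and carry no depth. The sources used here do not name the aligner, the caller or the IDR cutoff. The build is dm6, per the labels. All peak ends lay within the arm lengths of the RefSeq Release 6 genome.

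Peaks were represented by their summits, ranked by signal value within a list and joined to the Ensembl BDGP6.54 annotation (release 115) with Python 3.11.15, numpy 2.4.6 and pandas 2.3.3. Summits of different lists within 150 bp were matched. The assignment was checked on simulated data. The 9 genes, the pathway list and the motifs were chosen with earlier results of these data known. Named beside the 9 genes are up to 2 pathway genes per role with the highest promoter signal, genes that share a summit with a member and the 3 genes nearest to ena in replicate ranks. Other upstream neighbours and pathway genes with no promoter summit were named after their values were seen. 1 of the 11 roles of the pathway list is not reported here on its own. Sra-1 was matched by its synonym Cyfip. Sequences of 4 summits are not printed. Alternatives were other lists, other distances, a narrower motif window and leaving out each replicate.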

Additional observations from a re-analysis of the deposited data

How the results depend on the processing

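With a summit counted only inside the gene, 5 of the 9 genes kept one (15.3% of all genes), and ena, dia, SCAR and WASp did not, since their IDR summits lie upstream. Among the 3620 strongest summits of the IDR list, 40 of the 76 pathway genes kept a promoter summit (27.7% of all genes). Leaving out each replicate in turn, with summits shared by the other replicates, gave 8 genes with a summit each time (46.1% to 48.2% of all genes), and 7 to 8 genes and 53 to 54 pathway genes with a promoter summit (35.9% to 37.4%). The gene lost each time was capu, and without replicate 1 the promoter summit of tsr was lost too. These lists of shared summits held 5422 to 5756 summits, far fewer than the 30000 of each replicate list. In the full replicate lists the capu IDR summit had a match in all 3, at ranks 8403, 12631 and 6636. Its loss from the shorter lists thus does not show that it was absent from a replicate. The consensus of all 3 replicates, which held 4918 summits, gave 8 genes with a summit (44.1% of all genes). It gave 7 genes and 50 pathway genes with a promoter summit (34.1%). The pooled list gave 9 (69.9%), 9 and 71 (56.1%). Promoter distances of 250 and 1000 bp gave 8 and 9 genes (capu was lost at 250 bp) and 55 and 64 pathway genes, against 37.8% and 45.6% of all genes. Matching within 75 and 300 bp gave 11 and 16 of 17 summits in all 3 replicates. Within 50 bp of the summit, the DRE and Motif 1 were at 0 of the 17, TATAAA at 2 and CGATA at 3. A narrower window or distance cannot give more matches. The shares of all IDR summits were not counted at these settings, so nothing about the 9 genes was read from the changes. No paired analysis was possible because there is 1 group. Read depth is unknown, so a missing summit may be a weak one.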
